A study of Mus musculus with 20 samples.

Results

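A set of 10 genes of bone morphogenetic protein (BMP), transforming growth factor beta (TGF-beta) and endoglin signalling was described in whole mouse retinas measured by bulk RNA sequencing. All of them (*Bmp4*, *Eng*, *Acvrl1*, *Tgfbr1*, *Tgfbr2*, *Smad1*, *Smad6*, *Smad7*, *Id1* and *Id3*) were taken by symbol from tables that share 18754 genes. There were 20 libraries in 4 groups of 5. The first pair was P17 *Atf6*+/+ mice and P17 *Atf6*-/- mice, in which a premature stop codon disrupts *Atf6* in the whole body, and both went into 75% oxygen at P7 and came back to room air at P12. This schedule is the oxygen-induced retinopathy (OIR) model, in which oxygen clears retinal vessels and the return to room air is followed by abnormal vessel growth. The second pair was P30 wild-type mice that received intravitreal saline or 10 µM Ceapin-A7, a small molecule that blocks ATF6 activation, and whose retinas were collected 24 h after injection. Both injections contained DMSO, at 0.05% with saline and 0.01% with Ceapin-A7 by the methods text but within the same range by the labels, so a vehicle difference and the drug cannot be told apart. Neither P30 group was exposed to oxygen, and the P17 groups were not injected. All mice were C57BL/6J of both sexes, and per the labels the cornea and lens were removed before the retina was taken, although lens fibre transcripts were high in some libraries.

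The pathway begins with secreted dimeric ligands that bring together type I and type II receptor kinases at the cell surface. The activated type I receptor phosphorylates SMAD proteins, which enter the nucleus and turn on targets such as the *Id* genes, while inhibitory SMADs feed back on the receptors. In endothelial cells, endoglin and the receptor encoded by *Acvrl1* form the branch that keeps vessels quiescent and separates arteries from veins, and loss of either gene causes hereditary haemorrhagic telangiectasia. ATF6 itself is a membrane-bound transcription factor of the unfolded protein response that is released when the endoplasmic reticulum is stressed.

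A pair of the 20 libraries stood apart from their groups over all genes. The median absolute distance of a gene from the other libraries of the group was 0.203 on the log2 scale in *Atf6*+/+ OIR replicate 4 and 0.200 in *Atf6*-/- OIR replicate 5, against 0.0961 to 0.132 in the other 8 OIR libraries and 0.0713 to 0.150 in the P30 libraries. The level of *Atf6* transcript does not tell the genotypes apart, at 14.6 to 16.1 FPKM (fragments scaled by gene length and by library depth) in *Atf6*+/+ and 13.6 to 16.8 FPKM in *Atf6*-/- retinas. The predicted gene *Gm29733*, chosen after its values were seen, was listed at 0 in 4 *Atf6*+/+ libraries and at 0.21 FPKM in the fifth, and at 3.12 to 6.89 FPKM in the *Atf6*-/- libraries, so both libraries that stood apart carried the level of their labelled group for it. For the 10 genes, and for the pathway genes counted further on, the log2 differences or counts in OIR are given with and without these libraries. Rod photoreceptor genes, which define this tissue, summed to 13946 to 21084 FPKM over 6 genes in every library, and no listed marker of 8 cell types was at 0 in a whole group. Lens fibre genes (11 listed, among them crystallins) summed to 9.24 to 459 FPKM in *Atf6*+/+ OIR, 5.69 to 9.4 FPKM in *Atf6*-/- OIR, 7.6 to 4591 FPKM after saline and 75.5 to 8207 FPKM after Ceapin-A7.

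To show the regulatory sequence of the genes on which the results turn, windows of 300 bases around the gene start (250 before and 50 after) were read from RefSeq on GRCm38.p6. Part of the windows was left out before the search, and windows of 7 of the 10 genes were used. *Eng* is shown because it had the largest difference of the 10 between the control groups and in OIR, and *Tgfbr1* and *Smad6* because their windows held a SMAD motif. Capitals mark the motif, GGCGCC in *Tgfbr1* (first base at -233 from the start) and GTCTAGAC in *Smad6* (first base at -4). The windows are chr2:32646345-32646644 on the plus strand for *Eng*, chr4:47352972-47353271 on the plus strand for the first of 2 starts of *Tgfbr1*, and chr9:64022010-64022309 on the minus strand for *Smad6*.
Eng: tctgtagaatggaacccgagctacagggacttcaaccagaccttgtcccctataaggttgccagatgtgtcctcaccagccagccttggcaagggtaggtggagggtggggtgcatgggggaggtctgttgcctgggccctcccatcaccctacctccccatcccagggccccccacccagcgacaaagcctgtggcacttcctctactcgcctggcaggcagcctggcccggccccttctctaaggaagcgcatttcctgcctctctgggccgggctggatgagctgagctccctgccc
Tgfbr1: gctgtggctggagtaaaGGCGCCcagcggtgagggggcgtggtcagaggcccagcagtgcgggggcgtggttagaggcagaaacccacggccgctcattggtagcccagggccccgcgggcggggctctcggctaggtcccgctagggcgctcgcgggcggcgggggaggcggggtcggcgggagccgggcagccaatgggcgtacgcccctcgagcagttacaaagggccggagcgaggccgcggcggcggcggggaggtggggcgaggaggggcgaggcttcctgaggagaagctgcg
Smad6: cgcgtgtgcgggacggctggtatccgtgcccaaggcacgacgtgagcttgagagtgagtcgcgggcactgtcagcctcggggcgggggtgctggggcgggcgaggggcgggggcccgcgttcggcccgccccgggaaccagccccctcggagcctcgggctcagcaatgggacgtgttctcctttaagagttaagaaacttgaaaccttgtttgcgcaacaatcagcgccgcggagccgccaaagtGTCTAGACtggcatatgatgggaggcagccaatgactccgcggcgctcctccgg
GGCGCC, the GC-rich element bound by BMP-activated SMADs, occurs in the windows of 13.4% of the 27025 genes searched, and the SMAD palindrome GTCTAGAC in 0.248% of them. Both motifs are their own reverse complement, so both strands were covered. The endoplasmic reticulum stress element, CCAAT and CCACG with 9 bases between them (0.137% of genes), and the ATF6 core TGACGTGG (0.714% of genes) were searched on both strands and were not in the windows of the 7 genes. A match is a run of letters and not evidence of binding, and no match says only that these letters are not in the window.

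FPKM is scaled by gene length, so levels can be ordered between genes. In *Atf6*+/+ OIR retinas the highest mean level was that of *Id3*, at 34.4 ± 2.11 FPKM (SD, n = 5), followed by *Id1* at 22.6 ± 1.90 and *Eng* at 19.7 ± 6.08 FPKM. *Smad1* came next at 9.97 ± 1.27 FPKM, and *Acvrl1* and *Tgfbr1* at 5.73 ± 0.854 and 5.38 ± 0.362 FPKM did not differ beyond their spread. *Tgfbr2* (3.15 ± 0.576), *Smad7* (2.55 ± 0.628) and *Bmp4* (2.32 ± 0.542) lay within their spread of each other, and *Smad6* was lowest at 1.26 ± 0.287 FPKM. In saline-treated retinas the order differed in that *Eng*, at 4.30 ± 0.835 FPKM, ranked below *Smad1* (9.23 ± 0.650) and *Tgfbr1* (7.98 ± 0.299) and close to *Smad7* (3.82 ± 0.264 FPKM). *Bmp4* was lowest there at 0.968 ± 0.390 FPKM, close to *Smad6* at 1.16 ± 0.314 FPKM.

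**Figure D1:**
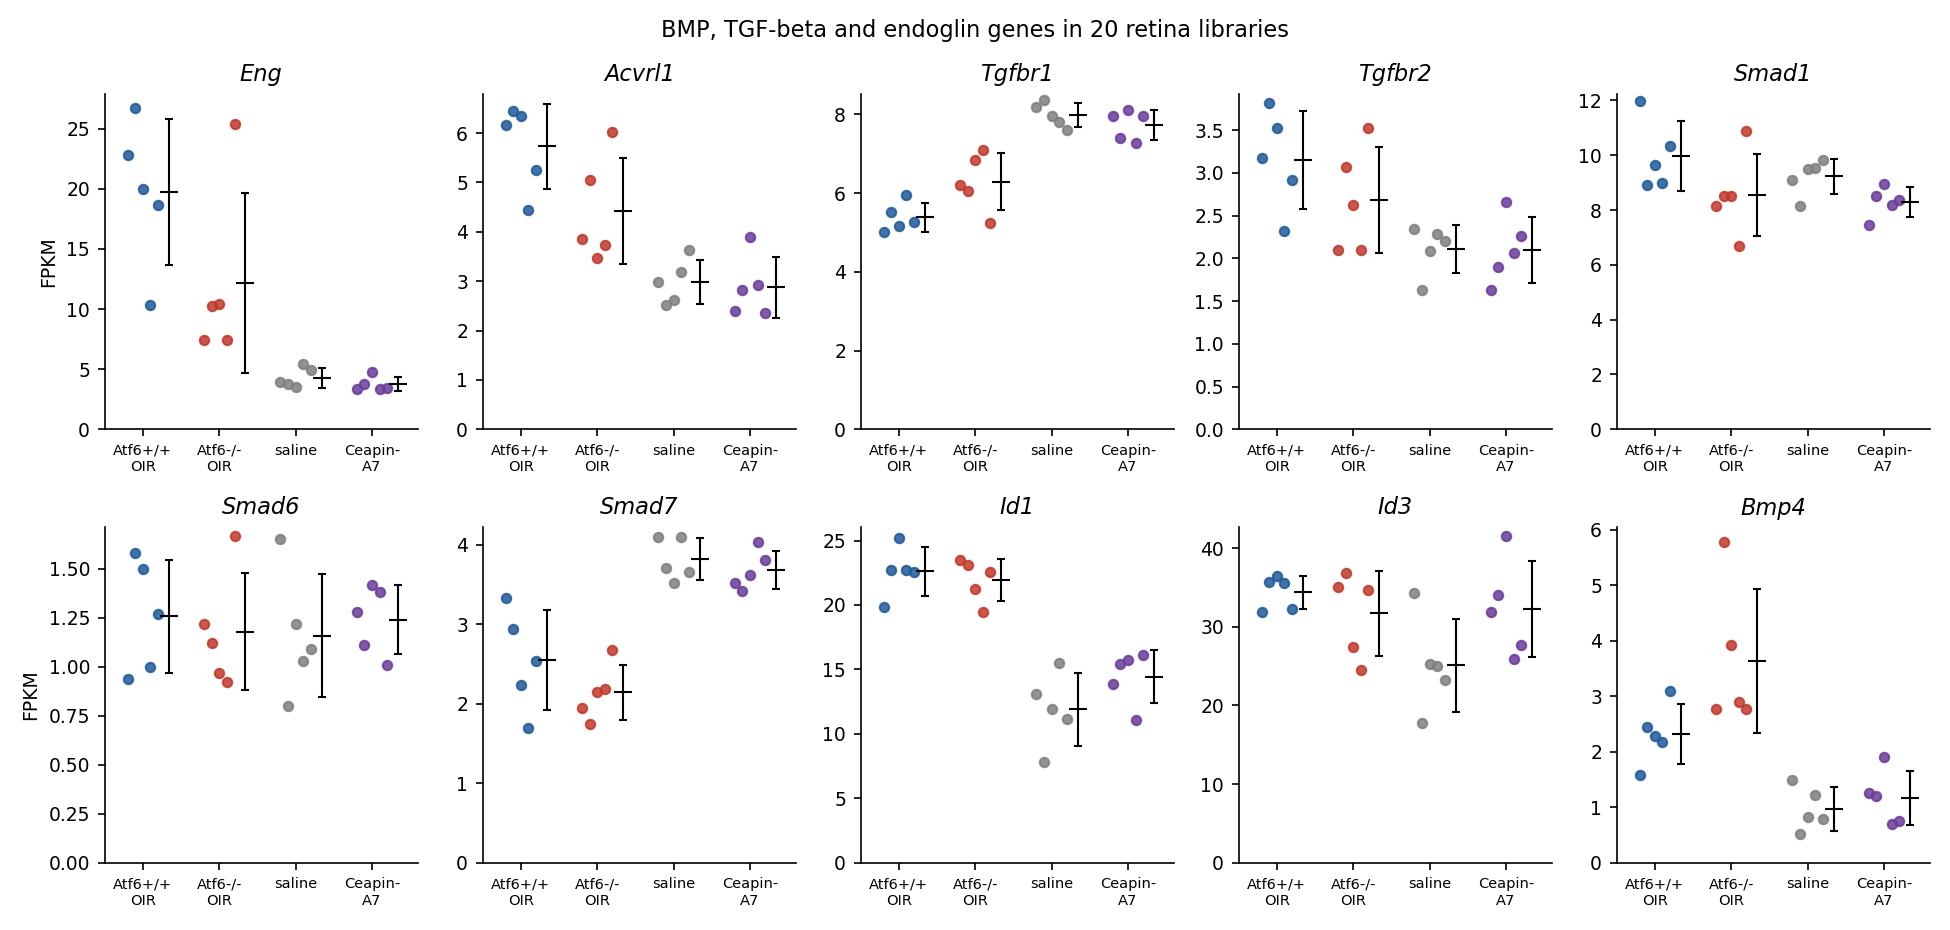
FPKM of the 10 genes (linear axis from 0) in each of 20 retina libraries, coloured by group, with the mean and SD of 5 libraries beside the points. *Eng*, *Acvrl1*, *Id1* and *Bmp4* are higher in all 5 *Atf6*+/+ OIR libraries than in all 5 saline-treated libraries, *Tgfbr1* and *Smad7* are lower, and 1 *Atf6*-/- OIR library has an *Eng* level of 25.4 FPKM while the other 4 lie at or below 10.4.

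The first comparison was between the control groups, *Atf6*+/+ OIR retinas at P17 and saline-treated retinas at P30, and shows how the 10 genes differ between the setting with active vessel growth and the mature retina. Of the 10 genes, 8 passed an adjusted p under 0.05 (limma, Benjamini-Hochberg over 15655 genes), 6 higher and 2 lower, against 55.5% of all genes tested (27.7% higher and 27.9% lower). Groups did not overlap for 6 of the 10, against 41.4% of all genes, with 4 of the 6 higher (19.6% of genes) and 2 lower (21.8%). The median difference of the 10 was 0.49 on the log2 scale, against 0.0066 over all genes. Age, oxygen, injection and the deposited table all differ between these groups and cannot be told apart.

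Among the ligand and receptors, *Bmp4*, a secreted BMP that patterns the dorsal retina, was at 1.59, 2.44, 2.29, 2.18 and 3.10 FPKM in *Atf6*+/+ OIR retinas and at 1.5, 0.51, 0.82, 1.22 and 0.79 FPKM in saline-treated retinas. The lowest OIR library lay just above the highest saline-treated library, and *Bmp4* was 2.31-fold higher (log2 1.21 ± 0.25 SE, adjusted p = 0.00127). *Eng*, which encodes the endothelial co-receptor endoglin, was at 22.8, 26.8, 19.97, 10.4 and 18.7 FPKM in *Atf6*+/+ OIR retinas against 3.90, 3.73, 3.51, 5.45 and 4.90 FPKM after saline. Every OIR library was above every saline-treated library, with replicate 4 the lowest, and the difference was 4.30-fold (log2 2.10 ± 0.22, adjusted p = 1.21e-05). *Acvrl1*, the endothelial type I receptor that works with endoglin, was at 6.16, 6.44, 6.34, 4.45 and 5.26 FPKM in *Atf6*+/+ OIR retinas and at 2.99, 2.52, 2.61, 3.18 and 3.63 FPKM after saline. Its groups did not overlap either, and it rose 1.86-fold (log2 0.90 ± 0.13, adjusted p = 9.99e-05).

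The receptors shared by TGF-beta ligands moved in opposite directions. *Tgfbr2*, the type II receptor that binds TGF-beta, was at 2.32 to 3.82 FPKM in *Atf6*+/+ OIR retinas and 1.63 to 2.34 FPKM after saline, groups that overlapped at *Atf6*+/+ replicate 4, and was 1.44-fold higher (log2 0.53 ± 0.14, adjusted p = 0.00756). *Tgfbr1*, the type I receptor that pairs with it, was at 5.02, 5.53, 5.17, 5.94 and 5.26 FPKM in *Atf6*+/+ OIR retinas and at 8.19, 8.36, 7.95, 7.80 and 7.61 FPKM after saline. Every OIR library was below every saline-treated library, with a difference of -0.58 ± 0.066 on the log2 scale (adjusted p = 2.01e-05).

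Of the SMADs, *Smad7*, which blocks type I receptors and recruits ubiquitin ligases to them, was at 3.33, 2.94, 2.24, 1.70 and 2.54 FPKM in *Atf6*+/+ OIR retinas and 4.09, 3.71, 3.52, 4.10 and 3.66 FPKM after saline. The groups did not overlap, and the difference was -0.62 ± 0.16 on the log2 scale (adjusted p = 0.00588). *Smad6*, the inhibitor that acts chiefly on BMP receptors, was at 0.94 to 1.58 FPKM against 0.80 to 1.65 FPKM, with an interval of the log2 difference from -0.32 to 0.52 (adjusted p = 0.684). *Smad1*, a SMAD that BMP receptors phosphorylate, was at 8.90 to 11.99 FPKM against 8.16 to 9.84 FPKM, with an interval from -0.11 to 0.28 (adjusted p = 0.447). Of the targets, *Id1*, an inhibitor of basic helix-loop-helix factors, was at 19.8, 22.7, 25.2, 22.7 and 22.6 FPKM in *Atf6*+/+ OIR retinas and at 13.1, 7.82, 11.9, 15.5 and 11.1 FPKM after saline. These groups did not overlap, and *Id1* rose 1.90-fold (log2 0.93 ± 0.14, adjusted p = 0.000154). Its relative *Id3* was at 31.9 to 36.5 FPKM against 17.7 to 34.3 FPKM, with saline replicate 1 inside the OIR range, and rose 1.38-fold (log2 0.46 ± 0.13, adjusted p = 0.00989).

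**Figure D2:**
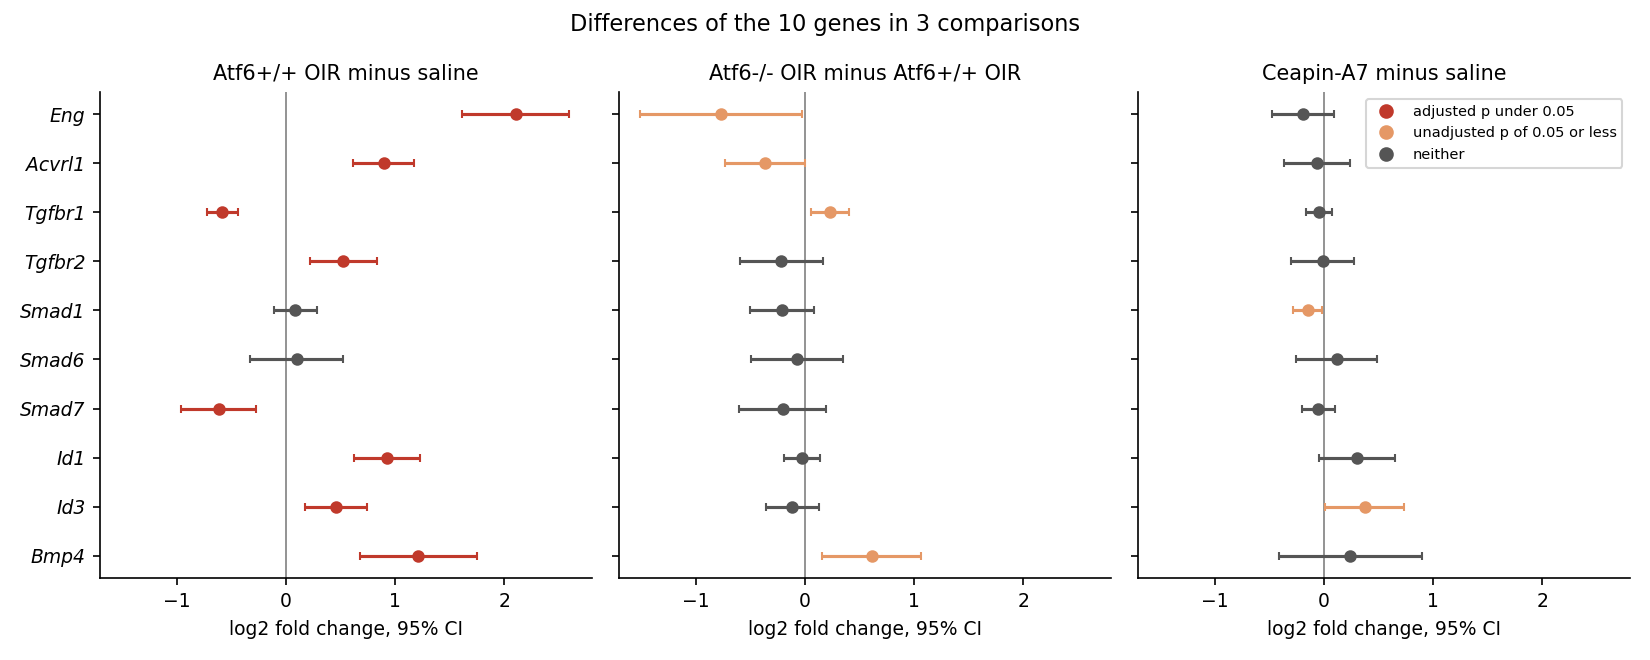
Log2 fold change with its 95% confidence interval (limma, 5 libraries per group) for the 10 genes in 3 comparisons, coloured by whether the adjusted or only the unadjusted p passed 0.05. In the comparison of the control groups 8 genes passed the adjusted threshold, and no gene did so after *Atf6* loss or Ceapin-A7.

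*Eng* and *Acvrl1* are expressed mainly by endothelial cells, so their levels were set beside 16 other endothelial genes. In a whole-retina library, fewer cells of a type and less RNA per cell cannot be told apart. Of the 16 markers, 12 rose in *Atf6*+/+ OIR retinas over saline and the median difference was 1.17 on the log2 scale. The summed level was 154 to 234 FPKM in *Atf6*+/+ OIR, 139 to 200 in *Atf6*-/- OIR, 105 to 128 after saline and 98.6 to 115 after Ceapin-A7. All 10 mural cell markers also rose (median 1.36), from sums of 30.9 to 43.2 FPKM after saline to 106 to 157 FPKM. Of the other lists, 7 of 8 microglia markers (median 1.22) and all 3 astrocyte markers (median 1.07) rose, 2 of 7 Müller glia markers rose and 1 fell, and 2 of 6 rod markers rose. Of the pigment epithelium markers 5 of 9 fell (median -1.704), with sums of 22.5 to 130 FPKM in OIR and 132 to 281 FPKM after saline, while *Bmp4* rose. None of 11 lens fibre markers passed, although all 11 were lower (median -2.54). The part of these cell types in the values of the 10 genes was not tested. *Eng* made up 11.1%, 11.9%, 8.53%, 6.71% and 10.8% of the endothelial sum in *Atf6*+/+ OIR retinas and 3.35% to 4.42% of it after saline. The share was higher in all 5 OIR libraries (log2 difference 1.36, exact two-sided permutation p = 0.00794, the smallest that 5 against 5 allows, adjusted p = 0.0476 over 6 tests). The share of *Acvrl1* was 2.71% to 3.04% against 2.29% to 3.27% (log2 difference 0.15, exact permutation p = 0.143), so its level followed the endothelial sum more closely than that of *Eng* did in these libraries.

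**Figure D3:**
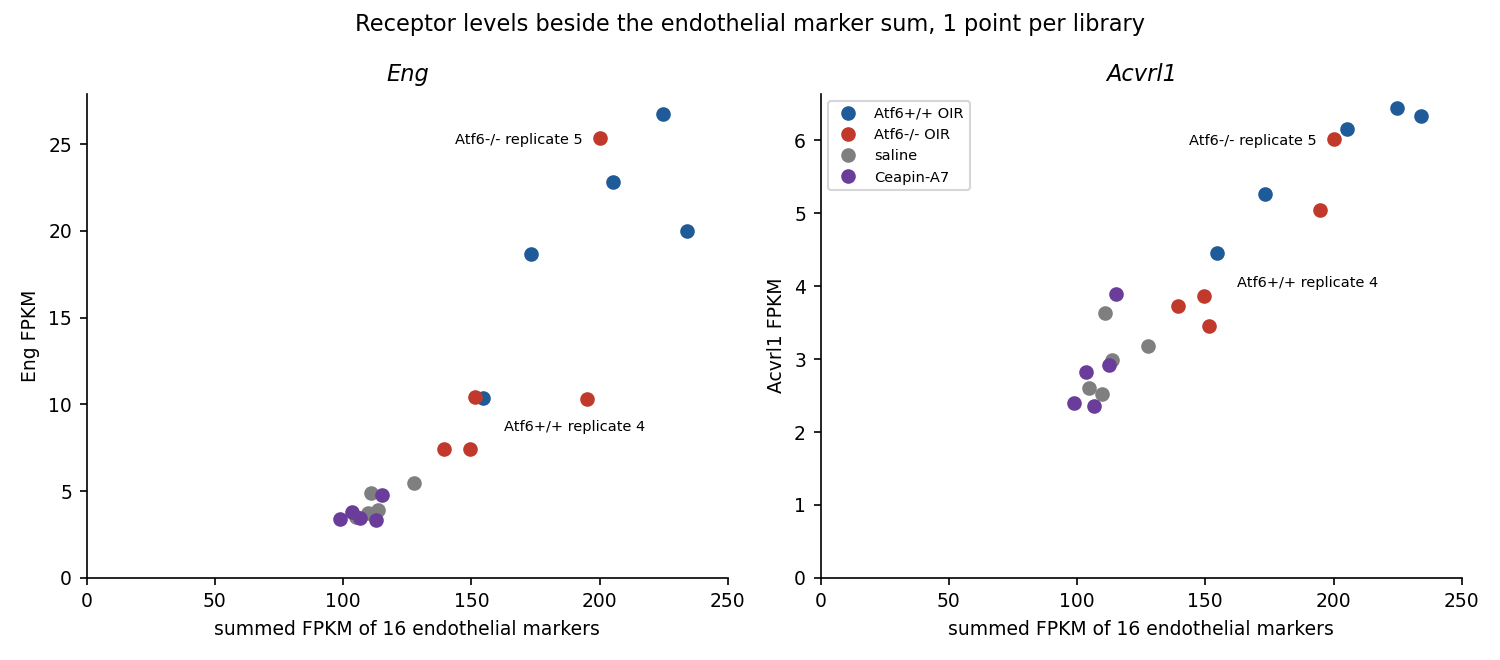
FPKM of *Eng* (left) and *Acvrl1* (right) against the summed FPKM of 16 endothelial markers, 1 point per library, with linear axes from 0. P30 libraries lie at sums of 98.6 to 128 FPKM and OIR libraries at 139 to 234 FPKM, and *Atf6*+/+ replicate 4 and *Atf6*-/- replicate 5 lie within the range of the other genotype for *Eng*.

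The second comparison asked how loss of *Atf6* changed these genes in OIR. With limma 0 of the 10 passed an adjusted p under 0.05, as did 0.0318% of 15704 genes, and groups overlapped for all 10, while 1.8% of genes did not overlap. Unadjusted, 4 genes had a p of 0.05 or less, against 12.7% of all genes, with *Eng* and *Acvrl1* lower (5.81% of genes) and *Bmp4* and *Tgfbr1* higher (6.94%) in *Atf6*-/- retinas. By the exact permutation test 2 of the 10 were at 0.05 or less, against 10.8% of all genes. In a fit with array weights, in which libraries that vary more count less, 3 of the 10 passed the adjusted threshold, against 17.6% of all genes, and 7 had an unadjusted p of 0.05 or less, against 36.6%. Of the 10 genes, 8 had a lower and 2 a higher mean log2 value, with a median of -0.16 against 0.0028 over all genes.

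*Bmp4* was at 2.78, 5.79, 3.92, 2.89 and 2.78 FPKM in *Atf6*-/- OIR retinas, and only *Atf6*+/+ replicate 5, at 3.10 FPKM, lay inside that range. The difference was 0.61 ± 0.21 on the log2 scale (95% confidence interval 0.16 to 1.06, p = 0.0122, adjusted p = 0.362, exact permutation p = 0.0317). Leaving out single libraries gave 0.44 to 0.73, the lowest without *Atf6*-/- replicate 2, and an unadjusted p of 0.0325 or less in all 10 of these fits. Without both libraries that stood apart it was 0.65 (adjusted p = 0.0732). Pigment epithelium markers differed too, 8 of 9 being higher in *Atf6*-/- retinas and 5 of them at an unadjusted p of 0.05 or less, with sums of 22.5 to 130 FPKM in *Atf6*+/+ and 84.7 to 319 FPKM in *Atf6*-/- libraries. The highest *Bmp4* value and the highest sum were in the same library, *Atf6*-/- replicate 2. Over *Atf6*-/- replicates 1 to 5 the sums were 84.7, 319, 209, 243 and 91.15 FPKM. Replicate 4, with the second highest sum, had *Bmp4* at 2.89, near the 2.78 of replicates 1 and 5. The part of this tissue in the *Bmp4* difference was not tested.

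*Eng* was at 7.43, 10.3, 10.4, 7.44 and 25.4 FPKM in *Atf6*-/- OIR retinas. Replicates 1 to 4 lay at about the level of *Atf6*+/+ replicate 4 or below it, and replicate 5 was above 4 of the 5 *Atf6*+/+ libraries. The difference was -0.77 ± 0.34 on the log2 scale (interval -1.51 to -0.027, p = 0.0433, adjusted p = 0.381, exact permutation p = 0.159). *Acvrl1* was at 3.86, 5.05, 3.46, 3.73 and 6.02 FPKM, again with replicate 5 the highest, and differed by -0.37 ± 0.17 (p = 0.0496, adjusted p = 0.391, exact permutation p = 0.0952). Without *Atf6*-/- replicate 5 the log2 differences were -1.09 for *Eng* (adjusted p = 0.0987) and -0.50 for *Acvrl1* (adjusted p = 0.102), and without *Atf6*+/+ replicate 4 they were -0.998 (adjusted p = 0.156) and -0.47 (adjusted p = 0.156). Of the 10 fits that left out 1 library, 2 gave *Eng* an unadjusted p of 0.05 or less, those without these libraries. For *Acvrl1* 3 of the 10 did, and its highest limma p was 0.126.

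With both libraries left out, *Eng* was at -1.32 ± 0.14 (adjusted p = 0.000592) and *Acvrl1* at -0.60 ± 0.11 (adjusted p = 0.00561). In that fit 6 of the 10 genes passed the adjusted threshold, namely *Eng*, *Acvrl1*, *Tgfbr2*, *Smad1* and *Smad7* lower (14.5% of genes) and *Tgfbr1* higher (10.3%), against 24.9% of 15714 genes in either direction. The log2 differences were 0.30 for *Tgfbr1*, -0.45 for *Tgfbr2*, -0.37 for *Smad1*, -0.45 for *Smad7* and -0.29 for *Smad6* (adjusted p = 0.222). Read by the unadjusted p instead, 7 of the 10 were called, against 38.8% of genes. This fit was chosen after seeing the data, and it removes by its construction the libraries farthest from their groups. With all 10 libraries, endothelial markers differed in the same direction as *Eng*, 15 of 16 being lower in *Atf6*-/- retinas (5 at an unadjusted p of 0.05 or less, median -0.30), as did all 10 mural markers (5 at that p, median -0.53). Lens fibre markers differed by more, 9 of 10 being lower (8 at that p, median -2.38). Of 8 microglia markers 7 were lower (1 at that p, median -0.10), as were 2 of 3 astrocyte markers (0 at that p, median -0.18). All 6 rod markers were higher (2 at that p, median 0.13), as were 5 of 7 Müller glia markers (1 at that p, median 0.074). Of all genes 5.81% were lower and 6.94% higher at that p. The part of these tissues in the differences was not tested. *Eng* was 4.97%, 5.28%, 6.88%, 5.34% and 12.7% of the endothelial sum in *Atf6*-/- libraries, with a difference of share of -0.55 on the log2 scale (exact permutation p = 0.111). For *Acvrl1* the share was 2.29% to 3.01% (difference -0.15, exact permutation p = 0.0714).

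**Figure D4:**
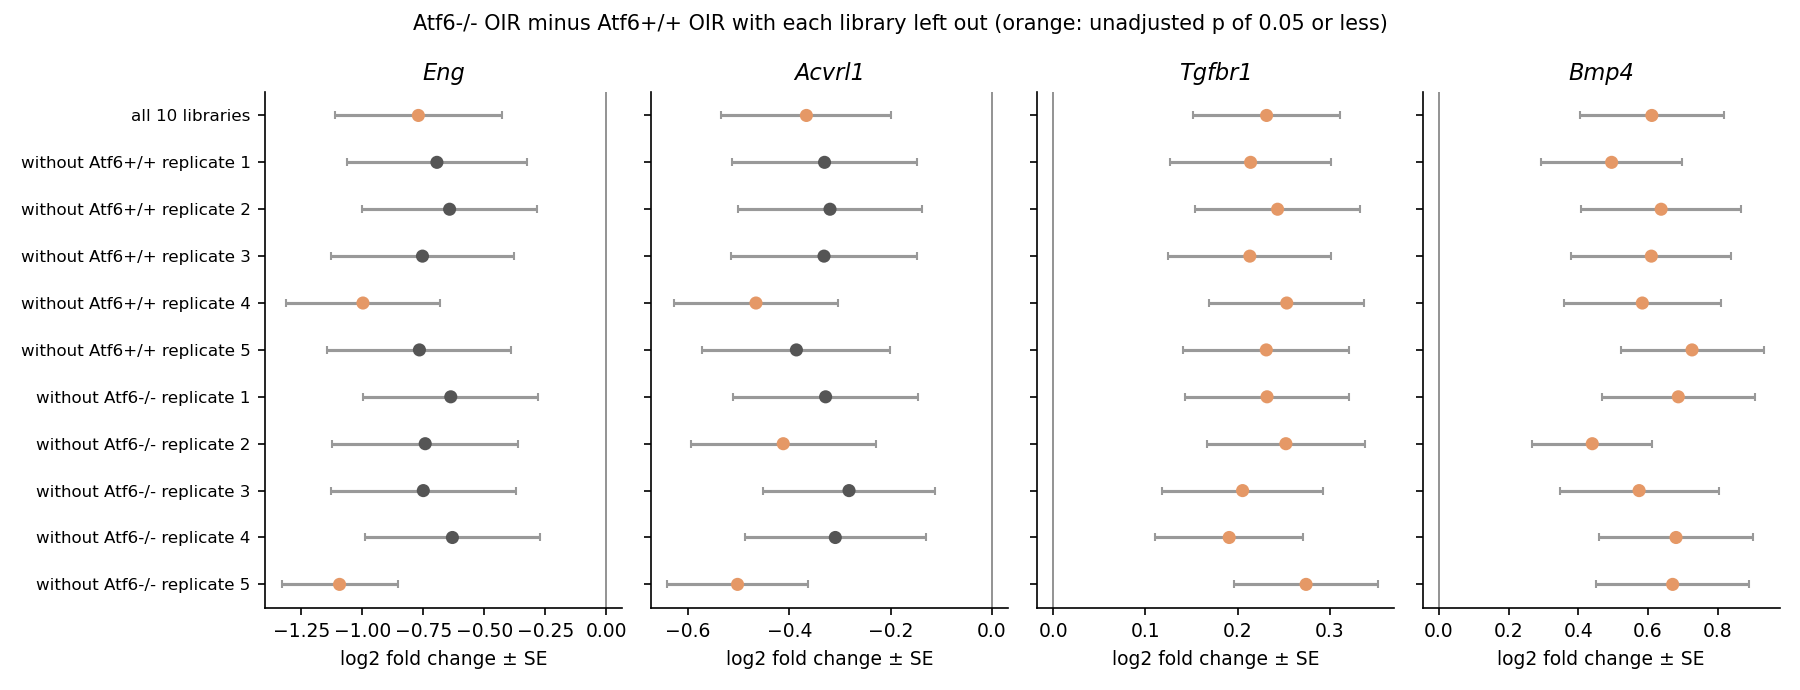
Log2 difference and standard error between *Atf6*-/- and *Atf6*+/+ OIR retinas for 4 genes, with all 10 libraries and with each library left out. The difference of *Eng* moves from -0.77 to -1.09 without *Atf6*-/- replicate 5 and to -0.998 without *Atf6*+/+ replicate 4, while *Tgfbr1* and *Bmp4* stay at an unadjusted p of 0.05 or less throughout.

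*Tgfbr1* was at 6.2, 6.04, 6.83, 7.10 and 5.25 FPKM in *Atf6*-/- OIR retinas. Replicates 1 to 4 were above all 5 *Atf6*+/+ libraries and replicate 5 lay among them. The difference was 0.23 ± 0.080 on the log2 scale (p = 0.0134, adjusted p = 0.362, exact permutation p = 0.0159), and leaving out single libraries gave 0.19 to 0.27 with a p of 0.0375 or less. *Tgfbr2* (2.10 to 3.53 FPKM), *Smad1* (6.69 to 10.9), *Smad6* (0.92 to 1.67) and *Smad7* (1.75 to 2.68 FPKM) each had their highest *Atf6*-/- value in replicate 5, and their log2 differences were -0.22, -0.21, -0.07 and -0.20 (unadjusted p from 0.142 to 0.719). *Id1* was at 23.5, 23.1, 21.2, 19.4 and 22.6 FPKM in *Atf6*-/- retinas, inside the range of the controls for 4 of the 5 libraries, and its interval was -0.19 to 0.14 on the log2 scale. *Id3* was at 35.1, 36.9, 27.5, 24.5 and 34.7 FPKM, with an interval of -0.35 to 0.13. Neither *Id* gene differed beyond the spread between libraries, also without *Atf6*-/- replicate 5 (adjusted p = 0.685 for *Id1* and 0.336 for *Id3*) and without both libraries that stood apart (-0.062, adjusted p = 0.597, and -0.17, adjusted p = 0.318).

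Across all genes the difference in OIR went with transcript GC content (Spearman's rho = -0.467 across genes, which are not independent replicates), and *Eng* (57.3% GC) lies at percentile 85.1 of the genes tested, *Acvrl1* (58.7%) at 91.1 and *Tgfbr1* (43.8%) at 13.6. The same rho was 0.223 between the control groups, -0.0958 after Ceapin-A7 and -0.346 for the difference of effects. Values reported for those comparisons are without a GC correction unless stated. After removal of that trend *Eng* was at -0.67 (limma, adjusted p = 0.471) and *Acvrl1* at -0.25 (adjusted p = 0.494). By limma *Tgfbr1* was then at 0.14 (adjusted p = 0.453) and *Bmp4* at 0.67 (adjusted p = 0.369). In that fit 0 of the 10 genes passed the adjusted threshold.

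The third comparison asked what 24 h of Ceapin-A7 did to these genes in retinas without OIR. With limma 0 of the 10 genes passed an adjusted p under 0.05, as did 0% of 15408 genes, and groups overlapped for all 10, while 1.47% of genes had groups apart. Unadjusted, 2 genes had a p of 0.05 or less, against 10.4% of all genes, *Id3* higher (5.04% of genes) and *Smad1* lower (5.31%), and by the exact permutation test 1 did, against 8.68% of genes. *Id3* was at 31.8, 34.1, 41.5, 25.9 and 27.8 FPKM after Ceapin-A7 and at 34.3, 17.7, 25.3, 25.0 and 23.2 FPKM after saline. All Ceapin-A7 libraries were above 4 of the 5 saline-treated libraries, and saline replicate 1 lay within their range (log2 difference 0.37 ± 0.16, adjusted p = 0.475, exact permutation p = 0.0794). The difference was 0.26 without saline replicate 2 and 0.49 at the highest when single libraries were left out. *Id1* was at 13.9, 15.4, 15.7, 11.1 and 16.1 FPKM after Ceapin-A7, of which 4 libraries were above 4 of the saline-treated libraries (0.30 ± 0.16, adjusted p = 0.508, exact permutation p = 0.135). Müller glia markers summed to 1745 to 2018 FPKM after Ceapin-A7 and 890 to 2112 FPKM after saline. Of these 7, 6 were higher and 1 lower, with 2 higher at an unadjusted limma p of 0.05 or less (median log2 0.27). All 6 rod markers were higher (1 at that p, median 0.17), as were 8 of 10 mural markers (1 at that p, median 0.17). All 11 lens fibre markers were higher (0 at that p, median 1.10), while endothelial markers split 8 higher and 8 lower. The part of these cell types in the *Id* values was not tested.

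*Smad1* was at 7.47, 8.53, 8.95, 8.20 and 8.37 FPKM after Ceapin-A7 and 9.11, 8.16, 9.50, 9.52 and 9.84 FPKM after saline. Saline replicate 2 was the only control library inside the Ceapin-A7 range, and the difference was -0.15 ± 0.060 on the log2 scale (adjusted p = 0.472, exact permutation p = 0.0397). *Eng* was at 3.37, 3.77, 4.75, 3.34 and 3.45 FPKM (interval -0.48 to 0.096 on the log2 scale, adjusted p = 0.590) and *Acvrl1* at 2.40, 2.83, 3.89, 2.92 and 2.36 FPKM (interval -0.36 to 0.24). *Bmp4*, at 1.26, 1.21, 1.91, 0.69 and 0.76 FPKM, had the widest interval, -0.41 to 0.90. The other 4 genes, *Tgfbr1*, *Tgfbr2*, *Smad6* and *Smad7*, had log2 differences of -0.05 to 0.12.

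The effect of *Atf6* loss in OIR and that of Ceapin-A7 were compared by testing the difference of the effects in a fit of all 20 libraries. Age, oxygen, injection and the duration of the loss also differ between the 2 experiments and cannot be told apart from the way ATF6 was removed. With limma 0 of the 10 genes passed the adjusted threshold, as did 0.032% of 15628 genes, and 2 had an unadjusted p of 0.05 or less, against 9.19% of genes, 1 higher (5.39%) and 1 lower (3.79%). *Tgfbr1* differed by 0.28 ± 0.096 between the effects (adjusted p = 0.448), and *Id3* by -0.48 ± 0.21 (adjusted p = 0.512). For *Eng* the difference of effects was -0.58 with an interval of -1.40 to 0.24. Without both libraries that stood apart it was -1.12 (adjusted p = 0.00243), that of *Tgfbr1* was 0.36 (adjusted p = 0.0142), and these were the 2 genes of the 10 that passed, against 11% of genes (4.11% higher and 6.89% lower). Read by the unadjusted p, 6 of the 10 were called there, against 26.7% of genes. With array weights 2 passed the adjusted threshold and 5 the unadjusted one, against 4.76% and 24.3% of genes.

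A further 82 genes of the pathway were counted by role. Between the control groups 21 rose and 17 fell of 75 tested, against 27.7% and 27.9% of all genes, so the list as a whole was not called more often than other genes. Of the targets 5 of 9 rose and 0 fell, and of the other SMADs 4 of 5 fell and 0 rose. Ligands split 7 up and 3 down of 15, receptors 3 and 4 of 10, intracellular regulators 1 and 3 of 9, extracellular antagonists and modulators 2 and 3 of 16, and genes of TGF-beta latency and activation 3 and 0 of 11. Among these genes, the largest rises were those of *Lrrc32*, *Tgfbi* and *Tgfb1*. *Lrrc32*, which holds latent TGF-beta at the cell surface, was at 0.37 to 0.65 FPKM after saline and 1.59 to 3.91 FPKM in OIR (log2 2.19, adjusted p = 7.05e-06). *Tgfbi*, a TGF-beta-induced matrix protein, was at 0.30 to 1.65 and 2.40 to 4.16 FPKM (2.06, adjusted p = 0.000344), and the ligand *Tgfb1* at 0.91 to 1.98 and 3.61 to 6.38 FPKM (1.72, adjusted p = 2.62e-05). The largest falls were *Smad9*, a BMP SMAD (-0.73), *Tgfbr3*, the co-receptor betaglycan (-0.65), and *Smad5*, another BMP SMAD (-0.55), with adjusted p-values of 0.00101, 0.00506 and 0.000864.

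In *Atf6*-/- OIR retinas 0 of 75 pathway genes passed the adjusted threshold with limma, and 6 higher and 3 lower genes had an unadjusted p of 0.05 or less (12%, against 12.7% of all genes). With array weights 21 of the 75 passed the adjusted threshold, 8 higher and 13 lower (28%, against 17.6% of all genes), and without both libraries that stood apart 20 did, 5 higher and 15 lower (26.7%, against 24.9%). The 8 with the smallest p had adjusted p-values of 0.358 to 0.374. They were *Twsg1*, a BMP-binding protein (log2 0.20), *Sostdc1*, a BMP antagonist (0.33), the receptors *Acvr2a* (0.21), *Bmpr1a* (0.17), *Bmpr2* (0.19) and *Acvr1* (-0.29), *Lrrc32* (-0.74) and the ligand *Gdf10* (-0.49). These 8 were chosen by their p in the same libraries, so the refits that follow are not separate tests of them. With array weights all 8 passed, with adjusted p-values of 0.0250 to 0.0419. Without both libraries 7 of the 8 passed, *Lrrc32* at -1.06 (adjusted p = 0.00395), and *Bmpr2* did not (0.23, adjusted p = 0.0809). After the GC trend was removed 0 of the 75 passed the adjusted threshold (limma). By the unadjusted p 5 were called (6.67%), and no share of all genes is given for this fit, so that count is not read as a result. *Acvr2a* was then at 0.091 (adjusted p = 0.540), *Bmpr2* at 0.077 (adjusted p = 0.682) and *Bmpr1a* at 0.11 (adjusted p = 0.502). *Lrrc32* was at 1.09 to 2.08 FPKM in *Atf6*-/- and 1.59 to 3.91 FPKM in *Atf6*+/+ retinas, which overlapped. On rescaled values the groups of *Twsg1*, *Sostdc1* and *Acvr2a* did not overlap, 3 of 75 genes, against 1.8% of all genes. After Ceapin-A7 0 of 74 passed, and 2 higher and 12 lower genes had an unadjusted p of 0.05 or less, against 5.04% and 5.31% of all genes. The 8 with the smallest p all had an adjusted p of 0.472. *Id2*, a further *Id* target, was higher at 11.7 to 16.3 FPKM against 7.11 to 13.5 (log2 0.47), as was *Ltbp4*, which binds latent TGF-beta (0.29), while the repressor *Skil* (-0.21), the receptors *Acvr1* (-0.31), *Acvr1b* (-0.13) and *Tgfbr3l* (-0.22), the antagonist *Fstl3* (-0.41) and *Itgb8*, an integrin that activates TGF-beta (-0.40), were lower. On rescaled values the groups of *Skil* did not overlap, nor did those of *Smad2*, a TGF-beta SMAD named for this reason after its values were seen (-0.098), 2 of 74 genes against 1.47% of all genes. In FPKM as deposited *Skil* overlapped, at 8.23 to 9.03 after Ceapin-A7 and 8.94 to 11.5 after saline.

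**Figure D5:**
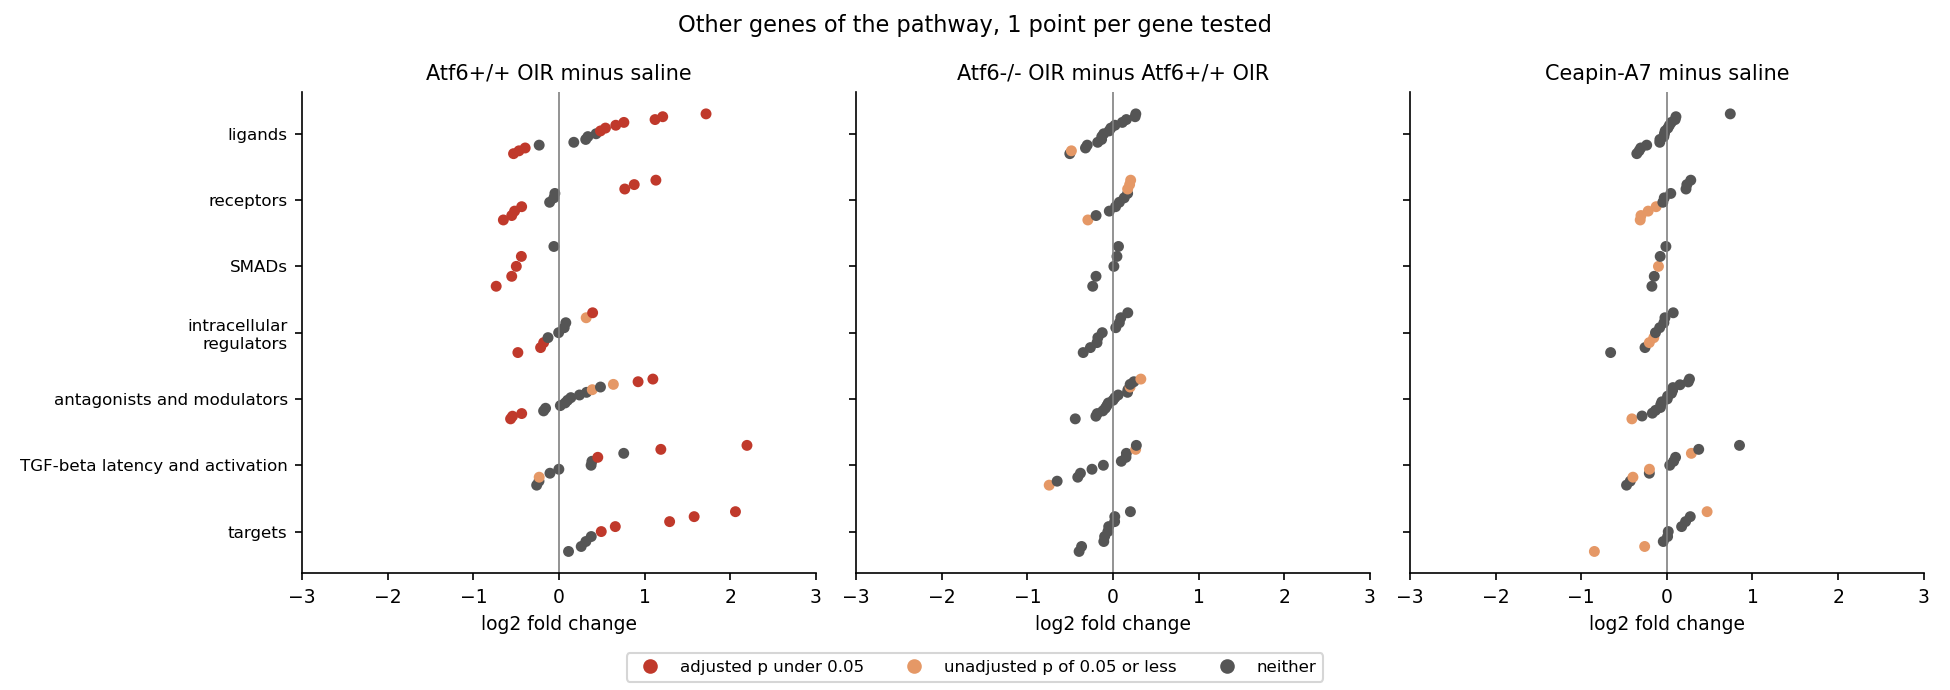
Log2 fold changes of the further pathway genes by role in 3 comparisons, 1 point per gene tested, coloured by whether the adjusted or only the unadjusted p passed 0.05. Between the control groups the targets that passed lie to the right of 0 and the SMADs that passed to the left, and no gene passed the adjusted threshold in the other comparisons.

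Within groups several of the 10 genes varied together. After each group's mean was subtracted, *Eng* correlated over the 20 libraries with *Acvrl1* (Pearson's r = 0.81) and *Tgfbr2* (0.81) and with the endothelial sum (0.76), while *Tgfbr1* ran opposite to *Eng* (-0.63) and to that sum (-0.67). *Eng* also went with *Smad1* (0.72) and *Smad7* (0.70), and *Tgfbr1* ran opposite to *Smad1* (-0.73). *Id1* went with *Id3* (0.69), *Bmp4* with *Id3* (0.70) and *Smad6* with *Id3* (0.68), and *Bmp4* had r = 0.51 with the pigment epithelium sum. These are descriptions over libraries of unknown depth, without the GC correction, and they include the libraries that stood apart. Among the 12434 other genes with a mean of at least 1 FPKM in each group, those most like *Eng* were *Notch3* (r = 0.95, and 0.89 without *Atf6*-/- replicate 5), *Kif1c* (0.93), *Ckap4* (0.93), *Tnks1bp1* (0.93) and *Tspan9* (0.92). None of these 5 is on the endothelial list, and *Notch3* is on the mural list. The genes most like *Id1* were *Klf15* (0.77), *Aifm3* (0.75), *Idua* (0.74), *Itga7* (0.73) and *Gemin5* (0.72). For *Bmp4* they were *Mfrp* (0.89), *Ltbp1* (0.86), *Fbln5* (0.85), *Ucp2* (0.83) and *Niban1* (0.82).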

How the data were processed

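Stranded mRNA libraries of mouse retinas were sequenced by the authors as paired-end reads, mapped with HISAT2 (v2.0.4) on GRCm39 and quantified with RSEM (v1.2.18). Deposited values are FPKM per gene to 2 decimals, and depth per library is not given, so no counting interval was computed. Each library was divided by its median-of-ratios factor, 0.1 was added, and genes averaging over 0.1 FPKM were compared on the log2 scale by limma (version 3.58.1, trended eBayes, R version 4.3.3) over all genes tested, with Benjamini-Hochberg adjustment. Non-overlap was read on these rescaled values. Fold changes on this scale understate the change of low genes. Each group stands in a table of its own, and FPKM is scaled within each library. Exact permutation tests were two-sided over all splits of 5 against 5. P-values measure the spread between the 5 libraries of a group, each described as a whole retina sample. How many mice these retinas came from is not stated, and the tests treat the libraries as independent. The fits were tested on simulated data with independent noise per gene. These data held no GC trend and no library that stood apart, so that test does not cover either.

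The genes, the pathway list and the marker lists were chosen with earlier results of these data known. Pathway genes named are the up to 8 with the smallest unadjusted p of 0.05 or less in each 2-group experiment, and the 3 largest rises and 3 largest falls between the control groups among those that passed and averaged at least 1 FPKM. Genes most like a member are the 5 with the highest Pearson correlation of group-centred values. One gene of the pathway list is not reported here. *Gm29733* was chosen after its values were seen. Alternatives were pseudocounts of 1 and 0.01, other filters, no rescaling, equal sums, quantile normalization, a limma fit with no trend or with array weights, 1 fit of the 20 libraries, a replicate block, and leaving out single libraries. A GC correction (lowess, span 0.3), the shares of the endothelial sum and the fit without both libraries that stood apart were added after seeing the data. GC content and sequences come from GRCm38 annotations.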

Additional observations from a re-analysis of the deposited data

Results flagged for a closer look

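*Eng* in *Atf6*-/- OIR replicate 5 was at 25.36 FPKM, far from the other 4 libraries of its group, which lay at 7.43 to 10.4 FPKM. The gap to the nearest library was 0.833 of the group's whole range, above the critical value of 0.71 for 5 samples. This was 1 of 40 groups of 5 values tested over the 10 genes, and chance alone places about 1 in 20 such groups past the critical value. The same library had the highest *Atf6*-/- value of *Acvrl1*, *Tgfbr2*, *Smad1*, *Smad6* and *Smad7* and the lowest of *Tgfbr1*.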

How the results depend on the processing

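Between the control groups the count of 8 genes was kept in number under all alternatives run, the replicate block included. In OIR 4 genes had an unadjusted p of 0.05 or less, against 12.7% of all genes. This number was 2 by the exact permutation test (10.8% of all genes), 7 with array weights (36.6%) and 7 without both libraries that stood apart (38.8%). Without trend it was 2, and no share of all genes is given for that fit. When single libraries were left out it was 2 to 5, while 1092 to 4011 of all genes were at that p. The OIR count at an adjusted p under 0.05, 0, was 3 with array weights (*Eng*, *Acvrl1* and *Tgfbr1*, against 17.6% of all genes) and 6 without both libraries (24.9%), and stayed at 0 when single libraries were left out. After Ceapin-A7 the unadjusted count of 2 was 1 by the exact permutation test (8.68% of genes). It was also 1 without trend, with array weights and at the same sum, for which no share of all genes is given. When single libraries were left out it was 0 to 2, while 956 to 2529 of all genes were at that p. For the difference of effects the unadjusted count of 2 was 5 with array weights (24.3% of genes) and 6 without both libraries (26.7%). When single libraries were left out it was 1 to 4, while 1006 to 2616 of all genes were at that p. The adjusted count of 0 was 2 with array weights (4.76%) and 2 without both libraries (11%). The cause of these moves was not tested. Over all genes, 3909 passed in OIR without both libraries, against 5.

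Values near 0 changed sign. With the GC correction *Smad6* was at 0.077 and *Id1* at 0.046 in OIR, and *Smad6* at -0.067 between the control groups, where quantile normalization gave -0.17. *Smad6* after Ceapin-A7 was at -0.014 with array weights. With single libraries left out, the ranges were -0.21 to 0.014 for *Smad6* and -0.062 to 0.025 for *Id1* in OIR, -0.17 to 0.0040 for *Acvrl1* and -0.098 to 0.067 for *Tgfbr2* after Ceapin-A7, -0.0065 to 0.23 for *Smad6* between the control groups, and -0.16 to 0.026 for *Smad1* in the difference of effects.

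Replicate numbers did not pair the libraries, with same-number correlations of -0.258 to 0.210 in OIR and -0.217 to 0.310 after Ceapin-A7. With the replicate block the unadjusted counts were 4 in OIR and 2 after Ceapin-A7, and 8 genes passed between the control groups. No share of all genes is given for the block fits, so these counts are not read as results. Depth is unknown, and the 2 decimals limit genes near 1 FPKM such as *Smad6* and *Bmp4*.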
